A study of Mus musculus with 12 samples.

Results

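The genes described here are 10 members of the IL-22, IL-6 family and STAT3 axis, taken by symbol from the 55335 rows of a table of gene expression in mouse colon. They are the ligands Il22 and Osm (oncostatin M), the receptor genes Il22ra1, Il10rb, Il22ra2, Osmr and Il6st, the transcription factor Stat3, its feedback inhibitor Socs3 and the secreted glycoprotein gene Lrg1. All 10 symbols were found, and 9 of the 10 reached the mean level needed for testing; Osm did not. The study asked how thymopentin, a synthetic pentapeptide derived from a thymic protein, acts in experimental colitis. All mice were wild type (WT) and all had colitis, raised either by TNBS, a hapten, or by DSS, a polymer that injures the epithelium, and they had been given thymopentin or normal saline. Each model has a saline and a thymopentin group, which gives 4 groups of 3 libraries. No group without colitis was analysed here, so saline stands for untreated colitis and not for a healthy colon. The sources used here give no strain, sex, age, dose or times, and no label says that libraries of a group came from separate mice. The p-values therefore measure only the spread between these libraries, which may be in part technical.

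IL-22 is made by type 3 innate lymphoid cells and T helper 17 cells and acts mainly on epithelium, which carries its receptor, a pair of IL-22RA1 and IL-10RB chains. IL-22RA2 is a soluble decoy that binds IL-22. Oncostatin M and other IL-6 family cytokines signal through gp130, the product of Il6st, which pairs with OSMR for oncostatin M. Both routes activate Janus kinases and phosphorylate STAT3, which enters the nucleus and induces, among others, SOCS3, an inhibitor of gp130 signalling, and LRG1. In the colon the pathway is known for antimicrobial and repair programmes of the epithelium and, for oncostatin M, for inflammatory responses of stromal cells.

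STAT factors bind palindromes of the form TTCNNNGAA, which reads alike on both strands. RefSeq promoters (build GRCm38.p6) were searched over the 250 bases before each start. Of the 10 members 7 matched a promoter, and 1 of these 7, that of Socs3, held the motif, against 7.02% of the 32851 promoters in the table. Among the genes of the pathway lists described further on, 8 of the 73 with a promoter held it in at least 1 promoter. The 7.02% counts promoters and not genes, so these shares differ in unit. Steap4 and Tnfrsf1a were those of the 8 genes whose transcript fell in DSS colitis under thymopentin. These 3 promoters are shown because all 3 genes fell there; they were chosen after those values had been seen. The motif stands in capitals, in Socs3 at 154 to 146 bases before the start (chr11:117969367-117969616, minus strand), in Steap4 at 116 to 108 (chr5:7960222-7960471, plus strand) and in Tnfrsf1a at 244 to 236 (chr6:125349473-125349722, plus strand). A match is a description of these letters, and binding was not measured.
Socs3: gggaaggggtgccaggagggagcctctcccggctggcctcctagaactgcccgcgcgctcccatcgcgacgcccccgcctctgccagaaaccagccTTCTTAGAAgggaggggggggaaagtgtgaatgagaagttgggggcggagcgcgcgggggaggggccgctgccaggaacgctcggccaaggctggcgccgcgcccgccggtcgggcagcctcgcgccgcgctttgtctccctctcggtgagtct
Steap4: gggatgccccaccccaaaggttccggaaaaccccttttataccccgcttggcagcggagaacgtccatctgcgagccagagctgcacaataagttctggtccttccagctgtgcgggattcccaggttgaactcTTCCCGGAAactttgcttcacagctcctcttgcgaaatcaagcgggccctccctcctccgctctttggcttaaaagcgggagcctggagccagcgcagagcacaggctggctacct
Tnfrsf1a: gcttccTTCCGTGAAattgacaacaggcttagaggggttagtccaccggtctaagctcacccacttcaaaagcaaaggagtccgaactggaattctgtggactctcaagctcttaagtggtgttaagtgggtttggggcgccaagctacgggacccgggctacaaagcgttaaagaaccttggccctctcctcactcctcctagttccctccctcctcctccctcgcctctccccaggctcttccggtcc

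Expression is given in FPKM, fragments scaled to transcript length and library size. Differences were tested with limma on log2(FPKM + 1) over 13794 genes whose FPKM averaged 1 or more over the libraries, and a gene was called at a Benjamini-Hochberg adjusted p under 0.05. On this scale the fold of genes with low FPKM is understated. Summed FPKM ranged from 384431 to 532510 over the 12 libraries and between 13160 and 13805 genes reached 1 FPKM. The sources used here give no sequencing depth. Library TNBS saline 3 stood apart in genes that mark the position along the colon: Hoxb13, Hoxd13 and Hoxd10 summed to 1.02 FPKM at the lowest in TNBS saline, against at least 52.4 FPKM in TNBS thymopentin. In DSS they summed to 68.0 to 82.8 FPKM under saline and 131 to 171 FPKM under thymopentin, without overlap, and 0 of the 3 were called. Between the models 1 of the 3 was higher in DSS under saline, where 2090 of 13794 tested genes were. Under thymopentin 2 were, where 1524 of 13794 were. The part of position in the differences below was not tested. Epcam, Cdh1, Vil1, Krt8 and Krt20, markers of gut epithelium that do not tell colon from other gut, were present in every library.

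In DSS colitis, thymopentin went with lower transcripts of the ligand Il22, of a receptor subunit, of the feedback inhibitor Socs3 and of Lrg1. The other ligand, Osm, was too low to be tested. Il22, Osmr, Socs3 and Lrg1 fell, and Il22ra1, the IL-22 receptor chain of the epithelium, rose. The other 4 tested members, Stat3, Il6st, Il22ra2 and Il10rb, were not called. Over all tested genes 4.3% were called lower and 12.7% higher in this comparison. In TNBS colitis 0 of the 9 tested members were called by limma, where 0.667% of all tested genes were; 1 member, Lrg1, had an unadjusted p under 0.05. The median difference of the 9 members was -0.55 in DSS and -0.08 in TNBS on the log2(FPKM + 1) scale, beside 0.12 and 0.03 over all tested genes. Il22 and Osmr passed the filter on the mean only through the DSS saline libraries, so the counts and medians describe the members tested and support nothing further. In TNBS Il22 was near the floor under saline already, so a fall there could not be detected.

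**Figure D1:**
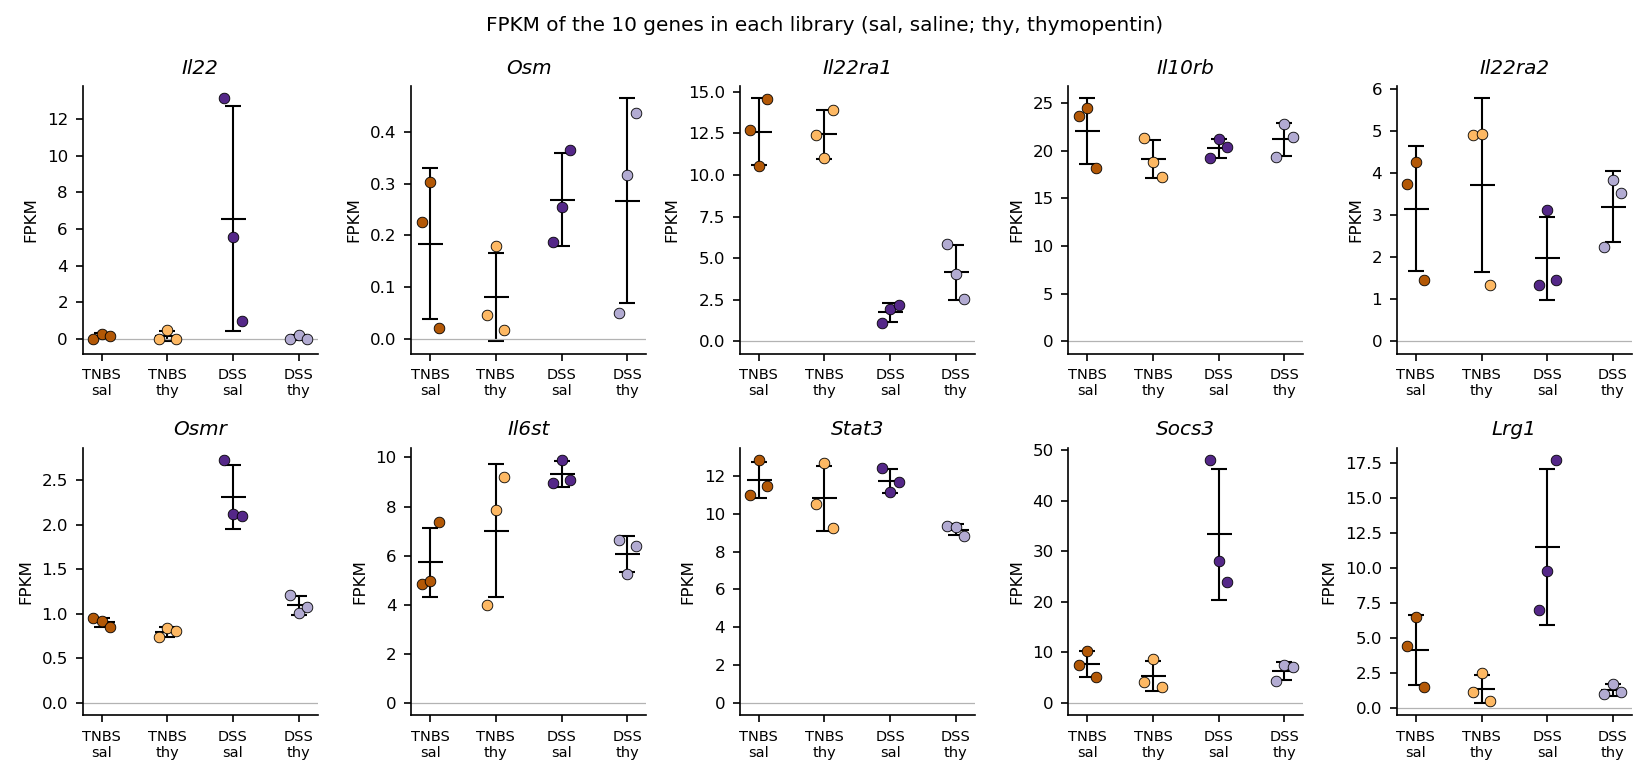
FPKM (linear axis) of each of the 10 genes in every library of the 4 groups; points are libraries, and bars are the group mean and SD (n = 3). Il22, Socs3, Osmr and Lrg1 stand highest in DSS saline, where Socs3 lay between 23.9 and 48.2 FPKM and at most 10.3 elsewhere.

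Il22 was found at appreciable level only among the DSS saline libraries. It read 13.1, 5.59 and 0.969 FPKM there and 0, 0.236 and 0 FPKM in DSS thymopentin. In TNBS it read 0, 0.308 and 0.185 FPKM under saline and 0, 0.488 and 0 FPKM under thymopentin. The DSS groups did not overlap, but the 3 DSS saline libraries were far apart, and the TNBS groups overlapped. At values as low as those of TNBS saline a fall of Il22 could not be detected.
The means were 6.56 ± 6.13 FPKM (SD, n = 3) in DSS saline and 0.0787 ± 0.136 FPKM (SD, n = 3) in DSS thymopentin. Il22 fell by 2.40 ± 0.54 (SE) on the log2(FPKM + 1) scale in DSS (limma, adjusted p = 0.0164). Leaving out DSS saline 1 brought the difference to -1.75, and leaving out DSS saline 3 brought it to -3.17. The call was lost when only the DSS libraries entered the fit (adjusted p = 0.0588). Reads recovered from the authors' deposited table were 606, 239 and 42 in DSS saline and 0, 9 and 0 in DSS thymopentin, so the fall rests on few reads in the treated libraries. Mouse Il22 has a near-identical copy, Iltifb: their transcripts share 97.4% of 1110 aligned bases (GENCODE M21). Iltifb was listed at 0 in 11 libraries and at 0.0466 FPKM in DSS saline 3, and how reads common to both were assigned is not given, so the split between the genes is uncertain.

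Osm was close to the floor in all groups. It read 0.188, 0.255 and 0.365 FPKM in DSS saline and 0.050, 0.316 and 0.436 FPKM in DSS thymopentin, and the groups overlapped. In TNBS it read 0.227, 0.303 and 0.021 FPKM under saline and 0.046, 0.179 and 0.018 FPKM under thymopentin, again with overlap. With no filter on low values, limma gave Osm a difference of -0.01 in DSS (adjusted p = 1) and of -0.13 in TNBS (adjusted p = 0.814). At values this low a change could not be detected.

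Il22ra1 was high in TNBS and low in DSS. It read 12.7, 10.5 and 14.6 FPKM in TNBS saline and 12.4, 11.01 and 13.9 FPKM in TNBS thymopentin. In DSS it read 1.09, 1.96 and 2.19 FPKM under saline and 5.82, 4.06 and 2.56 FPKM under thymopentin, without overlap. From high to low the order of the means was TNBS saline, TNBS thymopentin, DSS thymopentin and DSS saline, and the first pair overlapped. In DSS the mean was 2.37-fold higher under thymopentin, and Il22ra1 rose by 0.88 ± 0.23 (SE; limma, adjusted p = 0.0302). This call was near the threshold, and it was lost in 9 of 22 alternatives. It was lost without DSS saline 1 (limma, adjusted p = 0.0916) or 3 (0.0520), and without DSS thymopentin 1 (0.0779) or 2 (0.0847). Rescaling by quantiles (0.0541) or median ratios (0.0599) also ended it. So did dropping the filter, fitting the DSS libraries alone and the replicate block.

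Of the 5 epithelial markers, Epcam rose by 0.44 and Cdh1 by 0.39 on the log2(FPKM + 1) scale (limma, adjusted p = 0.0315 and 0.0310) and 3 were not called in DSS, where 12.7% of all tested genes rose. The summed levels of the 5 overlapped, at 3027 to 3686 FPKM in DSS saline and 3318 to 3879 FPKM in DSS thymopentin. The part of epithelial markers in the difference of Il22ra1 was not tested. In bulk tissue, fewer cells of a type and less RNA per cell cannot be told apart, here and for the genes that follow.

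Il10rb, the chain that IL-22 shares with IL-10 and related cytokines, showed no called difference. It lay between 17.3 and 24.4 FPKM over the 12 libraries, and its groups overlapped in every comparison. The difference under thymopentin was 0.06 in DSS, with a 95% interval of -0.21 to 0.33, and -0.19 in TNBS, with an interval of -0.46 to 0.08. The sign in DSS turned to -0.07 under either rescaling. Il22ra2, the decoy, varied within groups, from 1.33 to 4.92 FPKM in TNBS thymopentin alone. Its mean was 1.98 ± 0.992 FPKM in DSS saline and 3.20 ± 0.846 FPKM in DSS thymopentin (SD, n = 3), with overlap. The difference of 0.53 had a 95% interval of -0.37 to 1.42 (limma, adjusted p = 0.391), so a change of either sign lies within it.

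Osmr, the oncostatin M receptor chain, fell in DSS. It read 2.73, 2.12 and 2.10 FPKM in DSS saline and 1.21, 1.01 and 1.08 FPKM in DSS thymopentin. In TNBS it read 0.952, 0.915 and 0.851 FPKM under saline and 0.736, 0.844 and 0.813 FPKM under thymopentin. Neither pair of groups overlapped, and the gap was wide in DSS and narrow in TNBS. In DSS the mean was 2.11-fold lower under thymopentin, and Osmr fell by 0.66 ± 0.10 (SE; limma, adjusted p = 0.00305). In TNBS the difference was -0.08 ± 0.10 (SE; limma, adjusted p = 0.798). Recovered reads for Osmr were 1381, 993 and 981 in DSS saline and 565, 395 and 526 in DSS thymopentin.

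Il6st, which encodes gp130, read 8.96, 9.91 and 9.10 FPKM in DSS saline and 6.62, 5.23 and 6.37 FPKM in DSS thymopentin. The DSS groups did not overlap, but the difference of -0.55 ± 0.24 (SE) was not called by limma (adjusted p = 0.132). In TNBS the thymopentin libraries ranged from 3.98 to 9.21 FPKM and covered the range of saline, 4.84 to 7.36 FPKM. The spread of TNBS thymopentin enters the shared error of the fit. Il6st was called in DSS in 2 of 22 alternatives: with the DSS libraries alone (limma, adjusted p = 0.0285) and without TNBS thymopentin 1 (0.0373). It was not called in the other 20, and the highest adjusted p was 0.300.

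Oncostatin M acts on stromal cells. The 5 fibroblast markers summed to 83.4 to 92.7 FPKM in DSS saline and 60.4 to 70.8 FPKM in DSS thymopentin, and 2 of the 5, Dcn and Pdpn, fell, where 4.3% of all tested genes did. In TNBS the sums were 30.6 to 31.9 FPKM under saline and 44.7 to 54.1 FPKM under thymopentin, and 1 marker, Dcn, rose. The 5 smooth muscle markers summed to 2294 to 2642 FPKM in DSS saline and 943 to 1421 FPKM in DSS thymopentin, and 3 of the 5 fell. The part of these markers in the differences of Osmr and Il6st was not tested.

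Stat3 itself was not called in either model. It read 12.4, 11.2 and 11.7 FPKM in DSS saline and 9.37, 9.29 and 8.84 FPKM in DSS thymopentin, without overlap. The mean was 1.28-fold lower, and the difference of -0.33 ± 0.11 (SE) missed the threshold (limma, adjusted p = 0.0591). It was called in 5 of 22 alternatives: with array weights (0.0268), without TNBS thymopentin 2 (0.0350) or 3 (0.0408), and after quantile normalization (0.0215) and median-ratio rescaling (0.0272). The last 2 shift the median of all genes in this comparison by -0.10 and -0.11. In TNBS Stat3 lay between 11.01 and 12.9 FPKM under saline and between 9.26 and 12.7 FPKM under thymopentin. These are transcript levels, and phosphorylation of STAT3 was not measured.

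Socs3, the feedback inhibitor, fell steeply in DSS. It read 48.2, 28.2 and 23.9 FPKM in DSS saline and 4.27, 7.59 and 7.09 FPKM in DSS thymopentin. The lowest saline library was above the highest thymopentin library. In TNBS it read 7.46, 10.3 and 5.16 FPKM under saline and 4.09, 8.63 and 3.20 FPKM under thymopentin, with overlap. The DSS mean was 5.29-fold lower under thymopentin. Socs3 fell by 2.20 ± 0.36 (SE; limma, adjusted p = 0.00469), and the call held under every alternative run, with differences from -2.40 to -1.91. In TNBS the difference was -0.50 ± 0.36 (SE; limma, adjusted p = 0.629). Recovered reads for Socs3 were 5808, 3150 and 2657 in DSS saline and 475, 711 and 828 in DSS thymopentin.

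Lrg1 fell in DSS as well. It read 6.997, 9.79 and 17.7 FPKM in DSS saline and 0.990, 1.76 and 1.14 FPKM in DSS thymopentin, without overlap. The mean was 8.89-fold lower. Lrg1 fell by 2.37 ± 0.44 (SE; limma, adjusted p = 0.00749) and was called under every alternative run. In TNBS Lrg1 read 4.44, 6.48 and 1.49 FPKM under saline and 1.13, 2.48 and 0.538 FPKM under thymopentin. The TNBS groups overlapped because TNBS saline 3 lay below TNBS thymopentin 2, and the difference of -1.05 ± 0.44 (SE) was not called (limma, adjusted p = 0.346).

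Lrg1 is also expressed by neutrophils. The 8 neutrophil markers summed to 5.44 to 9.65 FPKM in DSS saline and 0.833 to 1.36 FPKM in DSS thymopentin, and to 2.29 to 9.16 and 0.338 to 1.16 FPKM in TNBS saline and thymopentin. Only 2 of the 8, S100a8 and S100a9, were tested, and they made up most of the sums under saline. From DSS saline to DSS thymopentin their means went from 2.63 and 3.23 to 0.105 and 0 FPKM, and that of Csf3r from 1.37 to 0.825 FPKM. The remaining markers were at most 0.272 FPKM in DSS saline. The defining granule gene Mpo was listed at 0 in every DSS library, and S100a9, Elane and Cxcr2 also in DSS thymopentin. The part of these cells in the difference of Lrg1 was not tested.

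**Figure D2:**
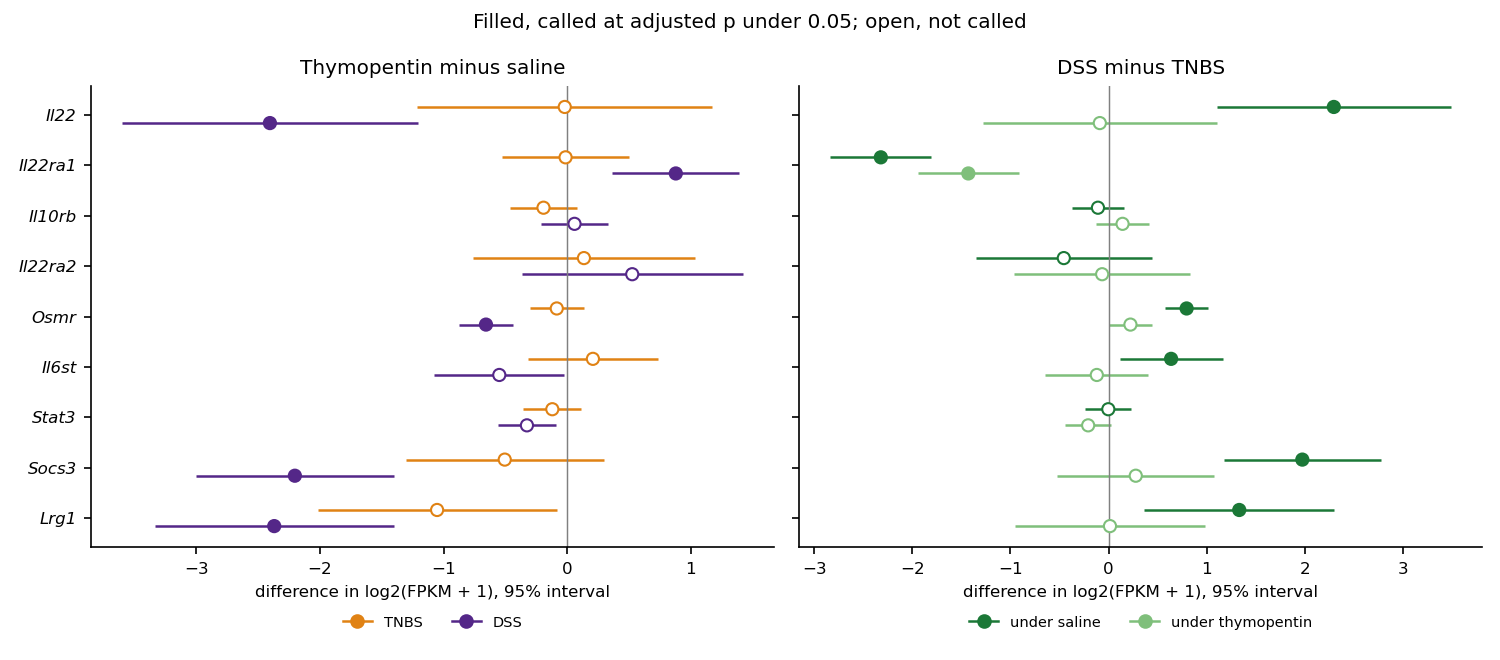
Differences in log2(FPKM + 1) with 95% intervals for the 9 tested members, thymopentin minus saline at left and DSS minus TNBS at right; filled points were called by limma at an adjusted p under 0.05. Socs3, Lrg1, Il22 and Osmr lie left of 0 in DSS and Il22ra1 right of it, and no TNBS point is filled.

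The authors' deposited tables of selected genes, which list genes with p up to 0.05 and fold changes of 1 or more on the log2 scale in either direction, hold 5 of the members for DSS and 1 for TNBS. Of the genes tested here, 6.18% are in the DSS table and 2.62% in the TNBS table. In the authors' deposited table for DSS the log2 fold changes are -6.43 for Il22 (FDR 0.0214), -3.19 for Lrg1 (FDR 1.02e-20), -2.51 for Socs3 (FDR 6.49e-08), -1.20 for Osmr (FDR 2.76e-10) and 1.09 for Il22ra1 (FDR 0.00482). The authors' deposited table for TNBS lists Lrg1 at -1.65 with an FDR of 0.125. Recovered reads for Lrg1 in TNBS were 269, 339 and 95 under saline and 66, 137 and 31 under thymopentin.

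Whether thymopentin acted differently in the models was tested as an interaction. Osmr was the member called, by -0.57 ± 0.14 (SE; limma, adjusted p = 0.0441), where 5.15% of all tested genes were called. With the replicate number as a block the adjusted p of Osmr was 0.0723. Osmr passed the filter on the mean only through DSS saline, and its call here was lost in 17 of 20 alternatives. Socs3 followed with -1.70 ± 0.51 (SE; adjusted p = 0.0837) and Il22 with -2.38 ± 0.76 (SE; adjusted p = 0.0987), and neither was called by limma. For Lrg1 the difference was -1.32, with a 95% interval of -2.68 to 0.05. A call in DSS and none in TNBS thus does not by itself part the models for Il22, Socs3, Lrg1 or Il22ra1. For Il22 both TNBS groups were near the floor, so a fall there could not be detected.

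Under saline the models differed in 6 of the 9 tested members. Of these, Il22 and Osmr passed the filter on the mean only through DSS saline, with 0.135 and 0.934 FPKM over the other 9 libraries. The count therefore describes the members tested and supports nothing further. Both genes kept this call in all 20 alternatives (limma, adjusted p up to 0.0370 and 0.00393). Il22, Socs3, Osmr, Lrg1 and Il6st were higher in DSS, where 15.2% of all tested genes were called higher, and Il22ra1 was lower, where 31.5% were. Socs3 was 4.37-fold higher by its mean, with a difference of 1.97 ± 0.36 (SE; limma, adjusted p = 0.00150). Il22 was higher by 2.29 ± 0.54 on the log2(FPKM + 1) scale (SE; limma, adjusted p = 0.00576). Osmr was 2.56-fold higher, with a difference of 0.79 ± 0.10 (SE; limma, adjusted p = 0.000205). Il22ra1 was 7.21-fold lower, with a difference of -2.32 ± 0.23 (SE; limma, adjusted p = 8.23e-05). The calls of Il6st (adjusted p = 0.0475) and Lrg1 (0.0286) were weak: both were lost without DSS saline 2 (0.109 and 0.0517) or 3 (0.0905 and 0.108). Il6st lost its call in 12 of 21 alternatives, 9 of them leaving out 1 library. Lrg1 lost its call in 6 of 20, among them also without TNBS saline 3 (limma, adjusted p = 0.101). Cell type markers differed too: 3 of 5 for epithelium were lower in DSS. Higher in DSS were 6 of 6 for macrophages, 5 of 5 for T cells, 4 of 5 for fibroblasts and 5 of 5 for smooth muscle. Of the 2 tested neutrophil markers 0 were called. The part of tissue make-up in the differences between the models was not tested.

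Under thymopentin only Il22ra1 was called between the models. Its mean was 4.15 FPKM in DSS and 12.4 FPKM in TNBS, with a difference of -1.43 ± 0.23 (SE; limma, adjusted p = 0.00256), where 16.5% of all tested genes were called lower. The 95% interval for Socs3 ran from -0.52 to 1.08 and that for Lrg1 from -0.95 to 0.98, so sizeable differences lie within both. The DSS saline libraries enter both the thymopentin comparison in DSS and the comparison of the models under saline, so the 2 sets of values are not independent. Model and any unrecorded batch of induction cannot be told apart.

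Genes that IL-22 induces in gut epithelium were followed as a list of 20, of which 19 were tested. In DSS 10 of the 19 fell under thymopentin, 0 rose and 9 were not called, where 4.3% of all tested genes fell and 12.7% rose. The list median was -0.91, beside 0.12 over all genes. Lcn2, Sprr2h, S100a8 and S100a9 would not have passed the filter on the mean without the DSS saline libraries, where each was highest. The count and median therefore describe the genes tested and support nothing further. With a mean FPKM of at least 5 required, 13 were tested and 5 fell. Nos2, the inducible nitric oxide synthase, read 14.8, 15.3 and 16.7 FPKM in DSS saline and 2.11, 2.16 and 1.97 FPKM in DSS thymopentin. The mean was 7.50-fold lower, and Nos2 fell by 2.43 ± 0.19 (SE; limma, adjusted p = 0.000119). Saa3, a serum amyloid A protein, fell by 1.76 (adjusted p = 0.00634) and Lcn2, which withholds iron from bacteria, fell by 1.47 (adjusted p = 0.00827). S100a8 and S100a9, the calprotectin subunits, fell by 1.66 and 2.06 (adjusted p = 0.00766 and 0.00689); they are abundant in neutrophils and are also on the neutrophil list above.

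Reg4, a lectin of secretory cells, stood the other way: it read 43.6, 46.7 and 42.0 FPKM in DSS saline and 249, 186 and 230 FPKM in DSS thymopentin, without overlap. Its mean was 5.03-fold higher, and the difference of 2.29 ± 0.75 (SE) missed the threshold (limma, adjusted p = 0.0582). Reg4 was called with array weights, with the DSS libraries alone, with the replicate block and without TNBS saline 3 or TNBS thymopentin 3. Reg4 was singled out after its values had been seen.

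The other genes that fell were Pla2g2a, a phospholipase, Fut2, which fucosylates epithelial glycans, Sprr2h, and the oxidase pair Duox2 and Duoxa2. The number called lower was smaller when single libraries were left out: 5 without DSS saline 3 or DSS thymopentin 3, 6 without DSS saline 1 and 7 without DSS thymopentin 2. Nos2, Saa3, Lcn2, S100a8 and S100a9 kept their calls throughout, whichever library was left out. In TNBS 1 of the 19 fell, Nos2, by 1.18 ± 0.19 (SE; limma, adjusted p = 0.0212), a call lost without TNBS saline 3, TNBS thymopentin 1 or TNBS thymopentin 3. The list median in TNBS was -0.49. Between the models the response of Nos2 differed by -1.25 (adjusted p = 0.0281).

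The antimicrobial lectins Reg3b and Reg3g, classic products of IL-22 signalling, did not follow Il22 across the libraries; they were singled out after their values had been seen. Reg3b read 113, 1.47 and 236 FPKM in TNBS saline, where Il22 was at most 0.308 FPKM, and 0.791, 16.4 and 0.455 FPKM in DSS saline, where Il22 was highest. Reg3g read 21.0, 0.918 and 45.1 FPKM in TNBS saline and 0.858, 6.13 and 0.280 FPKM in DSS saline. The highest libraries of both were TNBS saline 1 and TNBS saline 3. In TNBS thymopentin Reg3b was at most 0.382 FPKM, and the difference was not called by limma; TNBS saline 2 was the low library of its group.

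**Figure D3:**
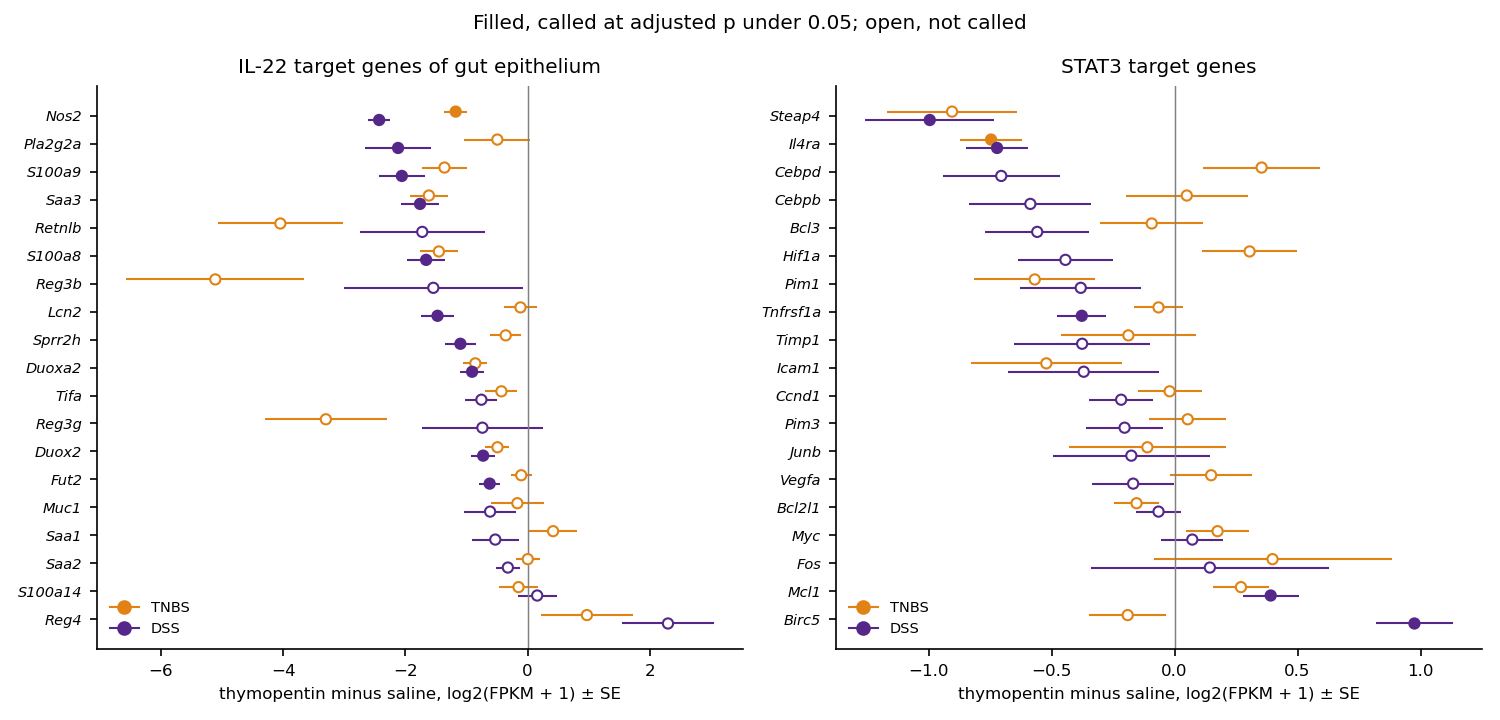
Thymopentin minus saline in log2(FPKM + 1), ± SE, for the 19 tested IL-22 target genes and the 19 STAT3 target genes in TNBS and DSS colitis; filled points were called by limma at an adjusted p under 0.05. In DSS 10 of the IL-22 target genes are filled left of 0, and the STAT3 target genes are filled on both sides.

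The 19 STAT3 target genes, all tested, split. In DSS 3 fell (Il4ra, Steap4 and Tnfrsf1a), 2 rose (Birc5 and Mcl1) and 14 were not called, beside 4.3% lower and 12.7% higher over all tested genes. The median was -0.37. Il4ra, the interleukin-4 receptor chain, read 10.5, 11.3 and 10.1 FPKM in DSS saline and 5.22, 6.66 and 6.33 FPKM in DSS thymopentin. It fell by 0.72 (adjusted p = 0.00633). It also fell in TNBS, by 0.75 (adjusted p = 0.0317), but that call was lost without any 1 of 7 libraries, among them all 3 of TNBS saline. Steap4, a metalloreductase, fell by 0.995 (adjusted p = 0.0299) and Tnfrsf1a, a TNF receptor, by 0.38 (adjusted p = 0.0307). Both of these calls were lost without DSS saline 3, DSS thymopentin 2 or DSS thymopentin 3, that of Steap4 also without DSS saline 2 and that of Tnfrsf1a without DSS saline 1 or DSS thymopentin 1. Their promoters and that of Socs3 are the 3 printed above.

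Birc5, or survivin, a gene of dividing cells, read 2.65, 3.29 and 2.21 FPKM in DSS saline and 6.58, 5.91 and 6.30 FPKM in DSS thymopentin. It rose by 0.98 ± 0.16 (SE; limma, adjusted p = 0.00422), and its response differed from that in TNBS by 1.17 (adjusted p = 0.0196). Mcl1, a survival factor, rose by 0.39 (adjusted p = 0.0419), a call lost without any 1 of 9 libraries, the 6 of DSS included, and under 6 other settings, quantile and median-ratio rescaling among them (adjusted p up to 0.189).

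Of the 10 Janus kinases and other STATs, 1 rose in DSS, 0 fell and 9 were not called, a share near the 12.7% of all tested genes that rose. Stat6, the factor downstream of IL-4, rose by 0.35 (adjusted p = 0.0157), a call lost without DSS saline 3 or DSS thymopentin 2 and under quantile or median-ratio rescaling. Its response differed from that in TNBS by 0.58 (adjusted p = 0.0207). Stat2, of the interferon pathway, was not called in either model, but its response differed between them by 1.14 (adjusted p = 0.0301). Stat2 read 7.35, 8.90 and 8.11 FPKM in TNBS saline and 3.87, 4.46 and 3.51 FPKM in TNBS thymopentin. In DSS it read 17.4, 9.79 and 11.1 FPKM under saline and 13.7, 15.8 and 15.4 FPKM under thymopentin.

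Of the 13 other negative regulators of the pathway, 1 fell in DSS, 0 rose and 12 were not called, beside 4.3% lower and 12.7% higher over all tested genes. Socs1, the relative of Socs3 that acts mainly on interferon signalling, read 6.94, 5.01 and 4.32 FPKM in DSS saline and 2.31, 2.95 and 3.54 FPKM in DSS thymopentin. It fell by 0.70 ± 0.17 (SE; limma, adjusted p = 0.0222), a call lost without DSS saline 1, DSS thymopentin 1 or DSS thymopentin 2. In TNBS none of the 13 regulators or 10 kinases and STATs was called by limma.

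Most other cytokines and receptors of these families were below the level needed for testing. Of 9 other IL-6 family ligands 3 were tested, Clcf1, Cntf and Lif, and of 7 receptors 2, Il11ra1 and Il27ra. None of these was called for thymopentin in either model. Il11ra1 was not scarce, with a mean of 6.35 FPKM over the 12 libraries. Under saline it was higher in DSS than in TNBS by 0.89 (limma, adjusted p = 0.000635), where 15.2% of all tested genes were called higher. Il6 itself was at most 0.585 FPKM in any library. Lif, the leukaemia inhibitory factor, read 2.02, 1.80 and 1.34 FPKM in DSS saline and 0.802, 1.30 and 1.15 FPKM in DSS thymopentin, without overlap (limma, adjusted p = 0.0531). In the IL-10 family 1 of 7 genes was tested, Il10ra, and it was not called for thymopentin.

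Among the genes of inducers and source cells of IL-22, Il1r1, Ahr, Batf and Il7r were not called for thymopentin in either model. Il17a, a cytokine of T helper 17 cells, read 0.505, 0.241 and 0.228 FPKM in DSS saline and 0, 0.114 and 0 FPKM in DSS thymopentin. Its relative Il17f read 0.494, 0.260 and 0.256 FPKM in DSS saline and 0, 0 and 0.080 FPKM in DSS thymopentin. Il23r, the receptor chain for an inducer of IL-22, read 0.062, 0.218 and 0.155 FPKM in DSS saline and 0.018, 0 and 0.044 FPKM in DSS thymopentin. These 3 genes lay lower without overlap but near the floor, below the level needed for testing. They were singled out after their values had been seen. Of the other untested genes of this list, Il12rb1 also lay lower without overlap, and Il12b and Ccr6 overlapped. Il23a and Ncr1 had higher means under thymopentin, 0.239 against 0.144 FPKM and 0.258 against 0.193 FPKM, with overlap. The share of all genes without overlap was not counted. The 5 T cell markers summed to 21.4 to 31.2 FPKM in DSS saline and 18.5 to 22.2 FPKM in DSS thymopentin. None of the T cell markers was called in DSS by limma, and the part of these genes in the fall of Il22 was not tested.

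**Figure D4:**
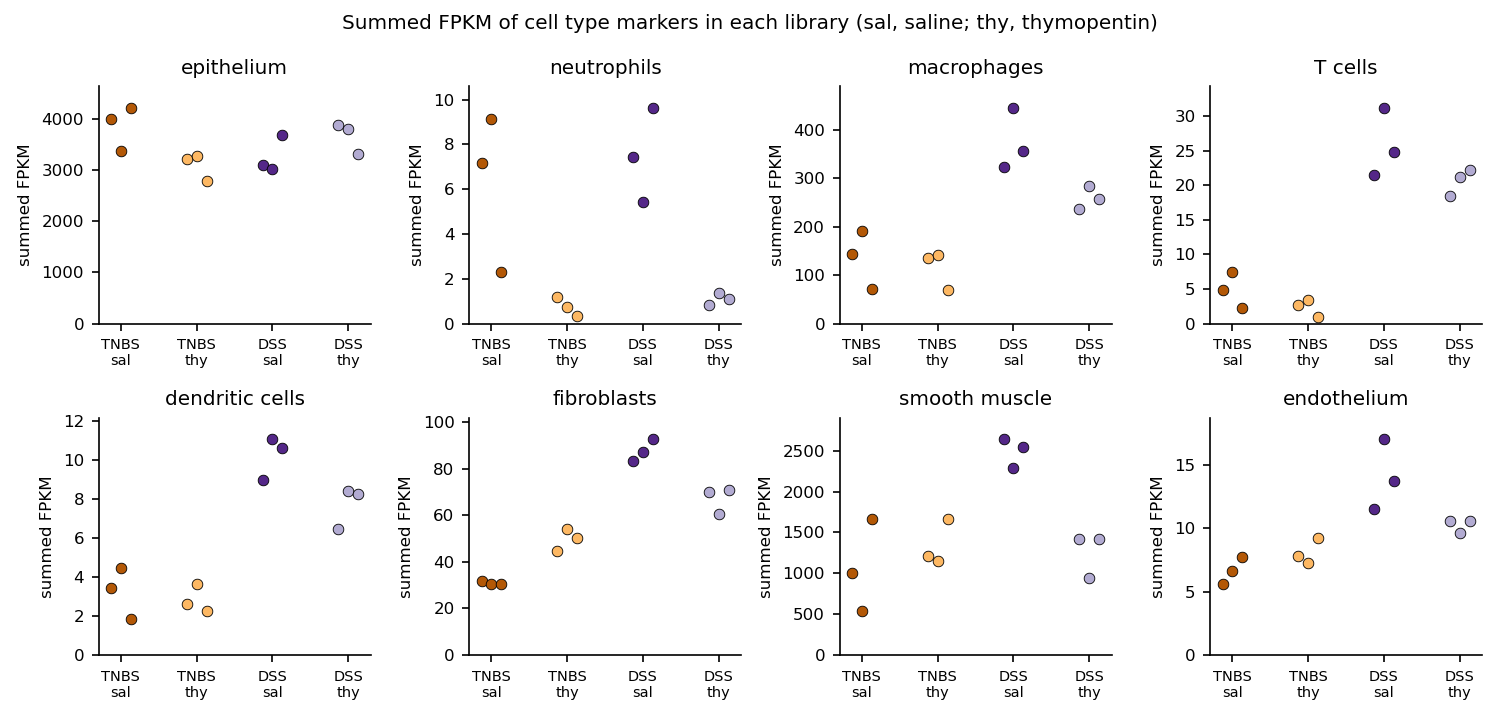
Summed FPKM (linear axes) of marker lists for 8 cell types in each library; points are libraries of the 4 groups. Neutrophil sums, which under saline rest mostly on S100a8 and S100a9, are low in both thymopentin groups, at most 1.36 FPKM. Smooth muscle sums are highest in DSS saline, at 2294 to 2642 FPKM.

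The genes whose log2(FPKM + 1) followed each member most closely over the 12 libraries were named by Pearson's r, as a description; the 4 groups drive much of it, and all values share the same libraries. For Il22 these were Fam213a (r = 0.914), the member Socs3 (0.903) and Snord35a (0.897). For Socs3 they were Sbno2 (0.949), Pnrc1 (0.946) and Dynll1 (0.945), for Osmr Gbp10 (0.966), AC159261.1 (0.959) and Ift172 (0.957), and for Lrg1 Marcksl1 (0.920), Slc7a9 (0.919) and Clca4b (0.918). Il22ra1 was followed by Cxadr (0.993), Wdr44 (0.991) and Clint1 (0.990). Stat3 was followed by Tnfrsf1b (0.936), the IL-22 target gene Fut2 (0.924) and Ptk6 (0.886). The nearest genes of the other members were Cuedc1 (0.927), Ppp1r12b (0.917) and Nacc2 (0.897) for Il6st, Gm44705 (0.912), Trim7 (0.887) and Cyp2d37-ps (0.877) for Il10rb, and Gm17195 (0.917), Usf3 (0.897) and Gm43681 (0.895) for Il22ra2. Among the members the closest pair was Osmr and Socs3 (0.914), and next came Il22 and Socs3.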

How the data were processed

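Colon RNA of 12 libraries was sequenced (total RNA, TRIzol, stranded TruSeq libraries, per the labels' protocols). Groups come from the treatment label and replicate numbers from the titles. FastQC, Cuffnorm, STAR 2.5, DESeq 1.22.1 and the build mm9 are listed, without roles, in the submitters' processing notes. The authors deposited FPKM for all genes and, for selected genes of each model, log2 columns with a log2 fold change, an FDR and a p-value. The deposited log2 columns were found to be log2 of reads divided by a size factor, plus 1; all values under a limit of 30 reads were whole within 0.01, and size factors lay between 0.847 and 1.12. Only selected genes have reads, so no count test was run.

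limma 3.58.1 (R 4.3.3) was fitted to log2(FPKM + 1), pseudocount 1, for genes averaging 1 FPKM or more, with 4 group means with 8 residual degrees of freedom and an empirical Bayes trend. Tests are two-sided, adjusted by Benjamini-Hochberg over 13794 genes. An exact permutation test of 3 against 3 cannot go below 0.1 and was not used. The test was checked on simulated data. Alternatives were other pseudocounts (0.1, 0.5), filters (none, 0.1, 5), quantile and median-ratio scaling, array weights, a fit of only the groups compared, a replicate block and leaving out each library. Python 3.11.15, pandas 2.3.3, numpy 2.4.6, Biopython 1.88 and matplotlib 3.10.9 were used.

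Same-numbered TNBS libraries deviated together from their group means (correlations 0.124, 0.268 and 0.476). Those of DSS did not (-0.136, 0.043 and -0.140). Differently numbered TNBS libraries ranged from -0.442 to 0.287, highest for TNBS saline 2 with TNBS thymopentin 1, so these values do not establish a pairing. The main fit has no pairing, and the replicate block was used only as an alternative. Members and lists were chosen with earlier results of these data known. All members are named, of each other list the called genes (up to 4 per comparison by p) or else up to 3 by mean FPKM, and 3 like genes per member; further list genes were named after their values were seen. Markers were scored as summed FPKM. One listed gene and the marker sum that rests on it are not reported here.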

Additional observations from a re-analysis of the deposited data

Results flagged for a closer look

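The response to thymopentin differed between DSS and TNBS colitis, by the interaction test in limma, for 1 member and 4 genes of the pathway lists. Of all tested genes 5.15% were called by this test, so the count by itself is no result about these genes. For Osmr the difference was -0.57 (adjusted p = 0.0441): Osmr fell by 0.66 in DSS and differed by -0.08 in TNBS on the log2(FPKM + 1) scale. Osmr passed the filter on the mean only through DSS saline, the group where it is high, and with no filter the call was lost (adjusted p = 0.0840). It was lost in 17 of 20 alternatives, among them leaving out any 1 library, with adjusted p from 0.0102 to 0.108 over all 20. For Nos2 the difference was -1.25 (adjusted p = 0.0281), a larger fall in DSS than in TNBS, no longer called once TNBS saline 1, DSS saline 3, DSS thymopentin 2 or DSS thymopentin 3 was left out. For Birc5 it was 1.17 (adjusted p = 0.0196), lost without TNBS saline 1 or DSS saline 3. For Stat6 it was 0.58 (adjusted p = 0.0207), lost without TNBS saline 1, DSS saline 3 or DSS thymopentin 2. For Stat2 it was 1.14 (adjusted p = 0.0301), lost without any 1 of 7 libraries, under quantile normalization, with no filter and with the replicate block.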

How the results depend on the processing

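Of the members, Socs3, Lrg1 and Osmr kept their DSS calls under every alternative run, and Il22 under all but the fit of the DSS libraries alone. The number of members called moved from 5 to 2 in DSS and from 6 to 3 under saline when a mean FPKM of at least 5 was required, since fewer were then tested. Array weights, whose estimation stopped before convergence, gave 2 members called in TNBS and 2 in the difference of responses. In the latter 0 were called with a pseudocount of 0.1 or 0.5, no filter, a filter of 5, quantile normalization or the replicate block, and 0 to 1 leaving out 1 library.

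Over all genes 92 were called in TNBS, against 44 with no filter, 2547 with array weights, 6 with only the groups compared and 41 to 116 leaving out 1 library. For DSS 2346 became 1447 with a filter of 5, 4025 with array weights and 923 to 2505 leaving out 1 library. For the difference 710 became 355 with no filter, 385 with a filter of 5, 2889 with array weights and 176 to 764 leaving out 1 library. Under saline 6431 became 3661 with a filter of 5, and under thymopentin 3799 became 2052 to 3999 leaving out 1 library. With the replicate block 79 genes were called in TNBS, 1944 in DSS and 589 in the difference, and of the members the calls of Il22ra1 in DSS (adjusted p = 0.0662) and of Osmr in the difference (0.0723) were lost. Of the pathway genes the block ended the DSS calls of Socs1, Tnfrsf1a, Mcl1 and Duox2 and the Stat2 call in the difference.

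Directions turned only in differences that were not called. Quantile normalization gave -0.0665 for Il10rb in DSS, 0.0367 for Il10rb and 0.16 for Stat3 under saline and -0.0810 for Lrg1 under thymopentin. Median-ratio rescaling gave -0.0696 for Il10rb in DSS, and 0.00982 for Il10rb and 0.11 for Stat3 under saline. Array weights gave 0.18 for Il22 in TNBS, 0.0745 for Stat3 under saline, and 0.00107 for Il6st and -0.00972 for Lrg1 under thymopentin. Leaving out 1 library gave ranges across 0 in TNBS for Il22 (-0.21 to 0.0759), Il22ra1 (-0.13 to 0.0890) and Il22ra2 (-0.20 to 0.58), in the difference for Il22ra2 (-0.0568 to 0.73), under saline for Stat3 (-0.0466 to 0.0572), and under thymopentin for Il22 (-0.19 to 0.10), Il22ra2 (-0.51 to 0.16), Il6st (-0.43 to 0.0870) and Lrg1 (-0.26 to 0.33). Except where stated, the cause was not tested. Depth is unknown for most genes, Osm included, and Il22 had few reads in DSS thymopentin.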
